A study of Mus musculus with 6 samples.

Results

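Cell cycle and DNA replication genes were followed in livers of mice on a high-fat diet and on a normal diet. The set was a list of 36 genes taken by name and drawn up with earlier results of these data known, and a gene's rows were the probe sets that the platform annotation assigns to that single symbol. In this way 35 of the 36 genes were found, with 87 probe sets, among 18193 genes with 34945 such probe sets. The level of Ccnb1, the remaining gene, was not analysed here. Liver RNA came from male mice of the inbred strain C57BL/6, which entered the feeding period at 8 weeks of age and stayed on their diet for 12 weeks. In the high-fat diet 60% of the calories came from fat, the normal diet was the control, and no group carried a mutation or a drug treatment. Each diet had 6 mice whose RNA was pooled by 2, read here as 3 pools per diet, with 1 array per pool (n = 3 per diet). The array was the Affymetrix Mouse Genome 430 2.0. The RNA is that of whole liver tissue from pooled animals, so a larger number of cells of one type and more RNA per cell cannot be told apart.

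A dividing cell passes through a phase of growth (G1), copies its DNA (S), grows again (G2) and divides (M). D-type cyclins with their kinases push a cell out of G1, E2F factors then switch on the genes of DNA synthesis, and a later wave of cyclins, kinases and spindle proteins carries out mitosis. In the adult liver most hepatocytes rest outside this cycle and enter it again when tissue is lost, and many are polyploid, while macrophages and other cells of the liver can also divide.

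Levels are given on the log2 scale of the RMA method, and a difference is the high-fat mean minus the normal diet mean ± its standard error (SE) from limma, so that 1 unit is a 2-fold change. Each gene was read from its brightest probe set, and genes above the 40th percentile of an array in at least 3 of 6 arrays were tested, 14071 in all. A gene is called when its limma p, adjusted over all of these by Benjamini-Hochberg, lies below 0.05. Of the members 30 passed the filter. Ccnb2 and Birc5 had under 3 normal diet arrays above the filter level, and Birc5 passed through its high-fat arrays alone, so for these genes the filter favours a difference. Levels of different probe sets are not compared. A suffix in a probe set's name marks probes that can match several transcripts.

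Among the 30 tested members 7 were called higher under the high-fat diet, 0 were called lower and 23 were not called. This is 23.3% of them, against 5.87% of all tested genes called higher (1.73% were called lower and 7.6% either way). In numbers, 826 of all tested genes were called higher and 244 lower, which became 597 and 299 after quantile normalization. At an unadjusted limma p below 0.05 there were 16 of the 30 members and 3883 of all tested genes, and Ccne1 was the only one of the 16 with a negative difference. With no level filter the 7 were the same and the 35 members were all in the fit. They were Cdkn2c, Mcm6, Ccnb2, Cdk1, Birc5, Top2a and Mki67, with differences from 1.89 to 0.61. The median difference of the tested members was 0.47, against 0.0033 over all tested genes. All 3 high-fat arrays lay above all 3 normal diet arrays in 13 of the 30 members, 43.3%, against 21.1% of all tested genes, and below them in 1 member, against 14.7% of all tested genes. Of the 30 differences 25 were positive and 5 negative, where 50.5% of all tested genes had a positive difference. The count of 7 became 2, 3 and 1 on omission of high-fat array 1, 2 or 3, and 7, 8 and 9 on omission of normal diet array 1, 2 or 3. Over all tested genes the 826 called higher became 213, 162 and 123 on omission of high-fat array 1, 2 or 3. On omission of normal diet array 1, 2 or 3 they became 771, 763 and 933. A lost call without a high-fat array is thus common over all tested genes.

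Promoter windows of 5 of the 7 called members are printed here as examples, because genes of DNA synthesis and genes of mitosis are known to carry different control elements. The windows run from 250 bases before to 50 bases after a start site, are read 5′ to 3′ on the gene's strand, and come from RefSeq on the mouse build GRCm38.p6. Capitals mark matches, on either strand, to the CCAAT box (CCAAT), which NF-Y binds, to the cell cycle homology region or CHR (TTTGAA or TTCGAA), known for mitotic genes, and to an E2F site (TTTCCCGC, TTTCGCGC, TTTGCCGC or TTTGGCGC). Ccnb2 (chr9:70421505-70421804, minus strand) and Top2a (chr11:99024140-99024439, minus strand) combine CCAAT boxes with CHR matches. Cdk1 (chr10:69352863-69353162, minus strand) holds all 3 kinds. Mcm6 (chr1:128359656-128359955, minus strand) holds E2F sites and CCAAT boxes, and the more upstream of the Cdkn2c windows (chr4:109666707-109667006, minus strand) holds none of these letters. The other Cdkn2c window, which holds 1 CCAAT box, and those of Mki67 and Birc5 are not printed.
Ccnb2: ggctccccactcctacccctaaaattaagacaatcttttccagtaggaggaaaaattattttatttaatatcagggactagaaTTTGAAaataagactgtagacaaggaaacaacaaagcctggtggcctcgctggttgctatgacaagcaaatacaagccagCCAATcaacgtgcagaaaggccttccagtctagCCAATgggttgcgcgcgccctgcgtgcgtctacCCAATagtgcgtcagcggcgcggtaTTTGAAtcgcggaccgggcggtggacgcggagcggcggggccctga
Cdk1: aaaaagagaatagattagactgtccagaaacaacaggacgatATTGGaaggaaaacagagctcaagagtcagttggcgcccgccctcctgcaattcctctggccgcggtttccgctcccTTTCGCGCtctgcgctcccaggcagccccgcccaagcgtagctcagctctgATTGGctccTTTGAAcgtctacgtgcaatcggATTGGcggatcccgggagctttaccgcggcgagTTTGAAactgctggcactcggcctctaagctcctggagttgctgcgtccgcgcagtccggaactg
Top2a: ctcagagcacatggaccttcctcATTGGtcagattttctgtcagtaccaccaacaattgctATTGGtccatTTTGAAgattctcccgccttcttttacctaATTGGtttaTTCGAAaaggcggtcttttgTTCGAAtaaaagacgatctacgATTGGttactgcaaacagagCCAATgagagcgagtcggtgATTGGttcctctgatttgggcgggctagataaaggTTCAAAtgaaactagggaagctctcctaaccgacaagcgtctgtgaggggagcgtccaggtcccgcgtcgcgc
Mcm6: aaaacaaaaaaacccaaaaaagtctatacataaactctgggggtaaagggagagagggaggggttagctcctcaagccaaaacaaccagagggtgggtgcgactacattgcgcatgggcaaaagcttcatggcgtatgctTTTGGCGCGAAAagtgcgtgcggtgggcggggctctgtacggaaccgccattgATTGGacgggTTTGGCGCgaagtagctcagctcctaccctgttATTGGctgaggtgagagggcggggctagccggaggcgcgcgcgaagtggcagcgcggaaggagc
Cdkn2c: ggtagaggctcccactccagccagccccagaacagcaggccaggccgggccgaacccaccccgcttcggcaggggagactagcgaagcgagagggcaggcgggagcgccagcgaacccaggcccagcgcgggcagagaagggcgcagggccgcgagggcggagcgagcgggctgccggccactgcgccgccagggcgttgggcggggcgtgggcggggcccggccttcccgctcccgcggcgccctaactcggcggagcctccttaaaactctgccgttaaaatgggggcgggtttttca

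Windows of 30 of the 36 listed genes, Ccnb1 among them, were matched by symbol, 33 windows in all. Ccna2, Ccnd1, Ccnd2, Ccne2, Mcm4 and Aurkb had no entry. A CCAAT box lay in 24 of the 33 windows (72.7%, against 37.4% of all 32851 windows of the same length), a CHR match in 12 (36.4%, against 19.2%) and an E2F match in 6 (18.2%, against 2.26%). Split by the diet result, a CCAAT box lay in 6 of 8 windows of the called members and in 16 of 21 windows of the tested members that were not called. A CHR match lay in 4 of 8 and in 7 of 21 of these windows, and an E2F match in 2 of 8 and in 4 of 21. Cdc20, Plk1, Aurka, Bub1b and Kif11, mitotic genes whose level was not called different, carry CHR matches as Ccnb2, Cdk1, Top2a and Mki67 do. So do the replication genes Mcm2 and Mcm7, also not called, the latter in the more upstream of its windows. The Birc5 window held no match. In Mcm6 and in Mcm5 a pair of E2F matches overlapped each other, and in Mcm7 an E2F match overlapped a CCAAT box. A match is a description of letters in a window and shows neither binding nor its absence.

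**Figure D1:**
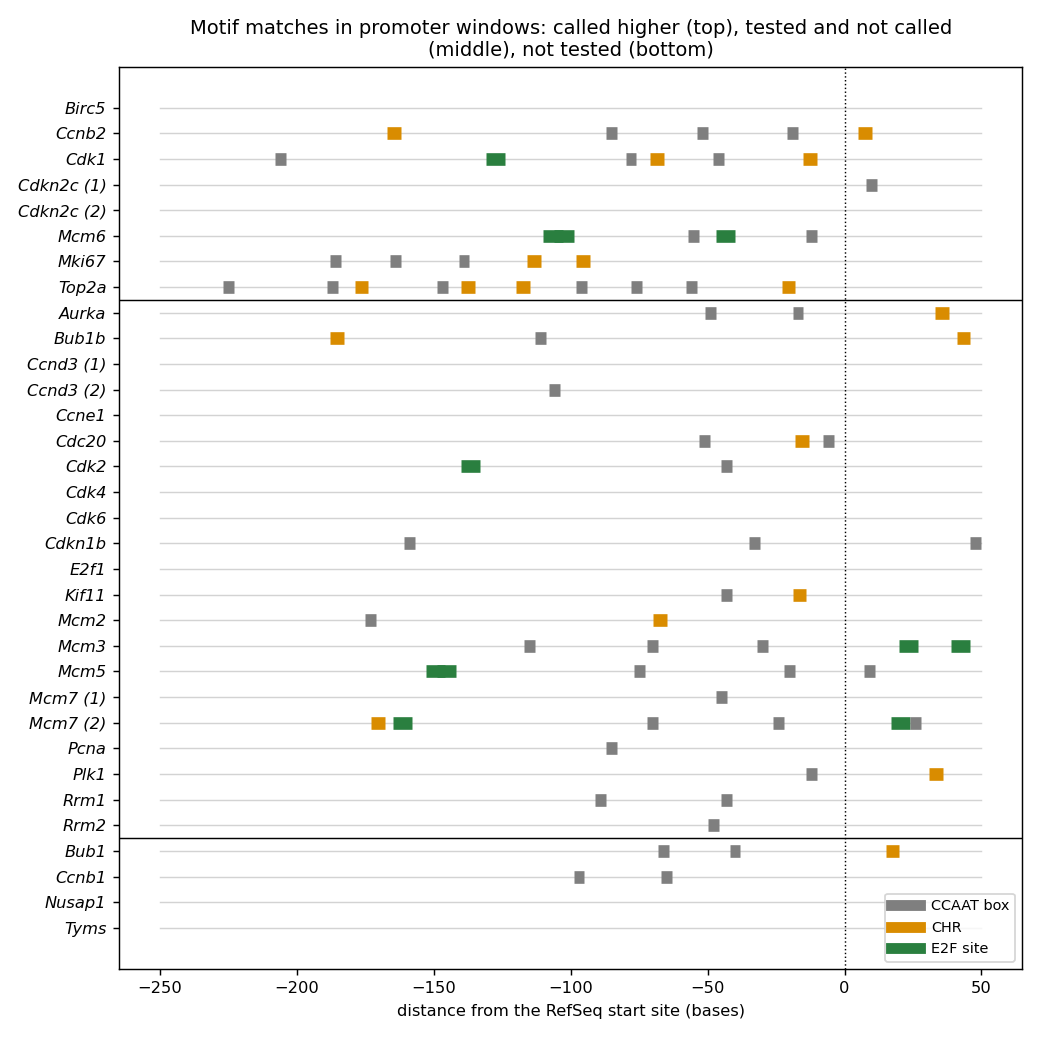
Matches to the CCAAT box (grey), the CHR (orange) and the E2F site (green) in the 33 promoter windows, by distance in bases from the RefSeq start site. Rows are grouped as called higher, tested and not called, and not tested. CCAAT boxes stand in most windows of the called and of the uncalled members alike.

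The largest difference of a single member was that of Cdkn2c, one of the brakes and cyclins of G1. In this group 1 of 7 tested genes rose (14.3%, against 5.87% of all tested genes) and 6 were not called. The group's median difference was 0.50, against 0.95 for the tested genes that drive the entry into mitosis. Cdkn2c, which encodes an inhibitor of the kinases Cdk4 and Cdk6, had levels of 7.18, 6.91 and 7.23 on the high-fat arrays, against 5.47, 5.14 and 5.05 on the normal diet arrays. The lowest high-fat array lay well above the highest normal diet array. Cdkn2c rose 3.70-fold (1.89 ± 0.15, limma adjusted p = 0.0025). Its difference ran from 1.80 to 2.01 over 16 other settings of the fit, among them the omission of each array, and it was called in all 16. It was the only member still called when high-fat array 3 was left out, and the only one at an adjusted p below 0.01. Cdkn2c has 1 probe set on the array, so no other probe set could be set beside it.

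Ccnd1, the D-type cyclin that is induced when hepatocytes leave rest, had levels of 8.21, 7.69 and 8.13 on the high-fat arrays, against 7.02, 7.69 and 6.85 on the normal diet arrays. Normal diet array 2 lay among the high-fat arrays, and the diets overlapped. The difference was 0.82 ± 0.24 and was not called (limma adjusted p = 0.0804). Without normal diet array 2 it was 1.07 (limma adjusted p = 0.0247). All 3 Ccnd1 probe sets differed in the same direction, by 0.74, 0.82 and 1.05, with normal diet array 2 the highest of its diet on each.

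The other genes of G1 were not called. Cdk6, a partner kinase of the D cyclins, averaged 7.02 ± 0.17 under the high-fat diet and 6.52 ± 0.36 under the normal diet (SD, n = 3 each; difference 0.50 ± 0.19, limma adjusted p = 0.142). On normal diet array 3 its level was 6.93, within the high-fat range, and without that array Cdk6 was called (0.70, limma adjusted p = 0.0156). Cdkn1b, an inhibitor of cyclin-kinase pairs, averaged 6.17 ± 0.34 under the high-fat diet and 5.51 ± 0.66 under the normal diet (SD, n = 3 each), with normal diet array 3 the lowest at 4.76, and its difference was 0.65 ± 0.33 (limma adjusted p = 0.242). Cdk4, another partner kinase of the D cyclins, differed by 0.055 ± 0.096, and by -0.081 and -0.048 after quantile normalization and cyclic loess. Its other probe sets differed by 0.15 and 0.53, uncalled (limma adjusted p = 0.419 and 0.144 when tested one by one), with no overlap between the diets for the probe set at 0.53. Of the further D-type cyclin genes, Ccnd2 differed by -0.048 ± 0.131 and Ccnd3 by -0.13 ± 0.15. Ccnd2 has 7 probe sets, whose differences ran from -0.18 to 0.43, and its sign changed without high-fat array 1 (0.056) or normal diet array 2 (0.015). That of Ccnd3 changed without normal diet array 1 (0.019).

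**Figure D2:**
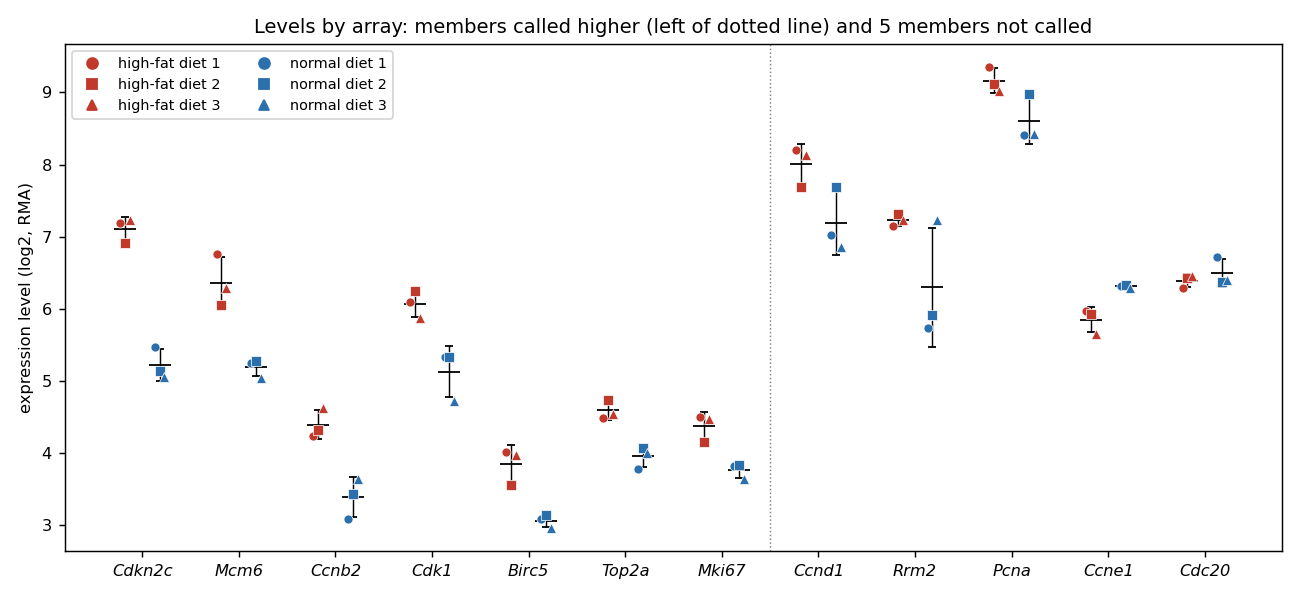
Log2 levels of 12 members on each array, high-fat diet in red and normal diet in blue, with marker shapes for the array number and a black bar for the mean ± SD of 3 arrays. The diets are separate for the 7 called genes left of the dotted line. A normal diet array lies within the high-fat range for Ccnd1 and Rrm2, and normal diet arrays 2 and 3 do so for Cdc20.

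At the step from G1 to S, 0 of 3 tested genes were called, with 1 at an unadjusted p below 0.05. That gene was Ccne1, a cyclin of this step, with levels of 5.98, 5.92 and 5.65 on the high-fat arrays, against 6.31, 6.33 and 6.29 on the normal diet arrays. Read from the brightest probe sets, it was the only tested member in which every high-fat array lay below every normal diet array. The difference was -0.46 ± 0.11 (limma adjusted p = 0.0541), and it was called lower with array weights (adjusted p = 0.0465), under cyclic loess (0.0473) and under quantile normalization (0.0373). Its other probe set, whose name has no suffix, differed by 0.0042. Cdk2, the kinase partner of cyclin E, differed by 0.29 ± 0.16, and E2f1, a factor that switches on genes of DNA synthesis, by 0.19 ± 0.11, both uncalled (limma adjusted p = 0.259 and 0.293). Ccne2, the second cyclin E gene, lay under the filter level on all 6 arrays, at 2.94, 3.36 and 2.75 on the high-fat arrays, against 2.46, 2.83 and 2.20 on the normal diet arrays.

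Genes of replication licensing and of the fork had positive differences in 7 of 7 on their brightest probe sets. Of all tested genes 50.5% had a positive difference. Of these 7 members 1 was called (14.3%, against 5.87% of all tested genes). The genes Mcm2 to Mcm7 encode the subunits of the helicase that is loaded on DNA before S phase. Mcm6 had levels of 6.76, 6.05 and 6.29 on the high-fat arrays, against 5.24, 5.28 and 5.05 on the normal diet arrays. High-fat array 1 stood highest, and the diets did not overlap. Mcm6 rose 2.26-fold (1.17 ± 0.18, limma adjusted p = 0.013). It was not called without high-fat array 3 (1.21, adjusted p = 0.063) or when its 3 probe sets were averaged (0.63, adjusted p = 0.0674). The other Mcm6 probe sets did not pass the level filter and differed by 0.73 and -0.029.

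The other Mcm genes were not called. Mcm7 differed by 0.58 ± 0.15 (limma adjusted p = 0.0629), and by 0.72 without normal diet array 1 (limma adjusted p = 0.0287). Its 3 other probe sets differed by 0.18, 0.15 and 0.13, all uncalled (limma adjusted p from 0.345 to 0.568 when tested one by one), and the average over its probe sets by 0.26. Mcm3 differed by 0.48 ± 0.16, Mcm5 by 0.46 ± 0.22, Mcm2 by 0.39 ± 0.13 and Mcm4 by 0.25 ± 0.20 (limma adjusted p from 0.102 to 0.459). The high-fat arrays lay above the normal diet arrays for Mcm2, Mcm3 and Mcm7, and the diets overlapped for Mcm4 and Mcm5. On high-fat arrays 1, 2 and 3 Mcm5 had levels of 5.80, 5.39 and 4.87, against 4.84, 5.05 and 4.80 on the normal diet arrays, so that high-fat array 3 fell within the normal diet range. Mcm2 was called when its probe sets were averaged (0.51, limma adjusted p = 0.0382), and when the suffix-free one alone was read (0.64, limma adjusted p = 0.0494). A further Mcm3 probe set differed by -0.17.

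Pcna, the sliding clamp that holds the polymerase on DNA, had levels of 9.35, 9.12 and 9.02 on the high-fat arrays, against 8.41, 8.98 and 8.43 on the normal diet arrays. The diets did not overlap, but normal diet array 2 came close to the lowest high-fat array. The difference was 0.56 ± 0.18 (limma adjusted p = 0.1), and 0.75 without normal diet array 2 (limma adjusted p = 0.0289).

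Nucleotide supply was represented by 2 tested genes, both of ribonucleotide reductase, the enzyme that makes the building blocks of DNA, and 0 were called, with 2 at an unadjusted limma p below 0.05. Rrm2, its regulated small subunit, had levels of 7.15, 7.32 and 7.24 on the high-fat arrays, against 5.74, 5.91 and 7.24 on the normal diet arrays. Normal diet array 3 was at the high-fat level while the other normal diet arrays were far below it. Another Rrm2 probe set gave 6.33, 6.22 and 6.12 on the high-fat arrays, against 5.13, 5.25 and 6.32 on the normal diet arrays, and on all 3 Rrm2 probe sets normal diet array 3 was the highest of its diet. The difference was 0.94 ± 0.36 (limma adjusted p = 0.148), and 1.41 without normal diet array 3 (limma adjusted p = 0.00129). Rrm1, the large subunit, differed by 0.50 ± 0.16 (limma adjusted p = 0.102), with no overlap between diets. Tyms, which encodes thymidylate synthase, stayed under the filter level, with its brightest probe set at 2.98 on average under the high-fat diet and 3.05 under the normal diet.

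**Figure D3:**
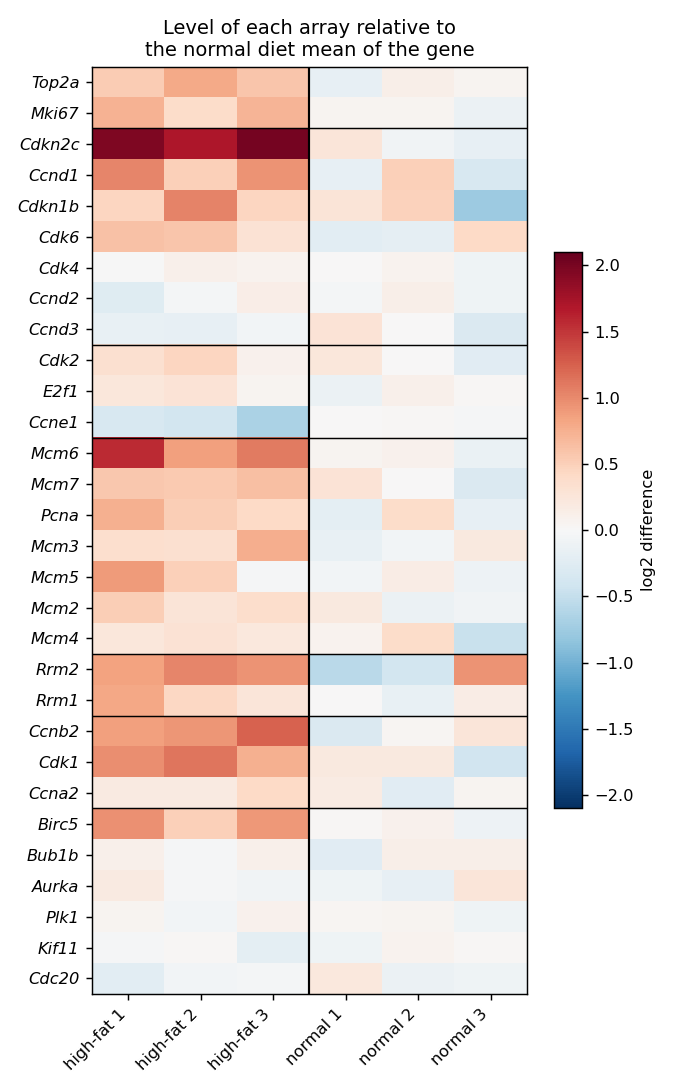
Level of each of the 30 tested members on each array relative to the gene's normal diet mean (log2, red above and blue below), high-fat arrays on the left, with black lines between roles. Normal diet array 3 has high-fat levels of Rrm2 and raised Cdk6, and the lowest Cdkn1b, Cdk1 and Mcm4.

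Genes that drive the entry into mitosis rose in 2 of 3 tested (66.7%, against 5.87% of all tested genes). Ccnb2, a mitotic B-type cyclin, had levels of 4.24, 4.31 and 4.63 on the high-fat arrays, against 3.09, 3.43 and 3.64 on the normal diet arrays. It rose 2.01-fold (1.01 ± 0.17, limma adjusted p = 0.0171). Normal diet arrays 1 and 2 were under the filter level, so the size of this change is uncertain. Cdk1, the kinase that partners cyclins A and B, had levels of 6.10, 6.25 and 5.87 on the high-fat arrays, against 5.33, 5.33 and 4.72 on the normal diet arrays. It rose 1.93-fold (0.95 ± 0.19, limma adjusted p = 0.0296). In both genes every high-fat array was above every normal diet array. Neither was called when high-fat array 1, 2 or 3 was left out (limma adjusted p = 0.0561, 0.0655 and 0.0756 for Ccnb2, and 0.108, 0.117 and 0.0794 for Cdk1), and both were called whichever normal diet array was omitted. Ccna2, the cyclin of S and G2, differed by 0.26 ± 0.14 and was not called (limma adjusted p = 0.258), and its second probe set differed by -0.044.

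Of 6 tested genes of mitotic kinases, the spindle and its checkpoint 1 rose (16.7%, against 5.87% of all tested genes) and 5 were not called. Birc5, which encodes survivin of the chromosomal passenger complex, had levels of 4.02, 3.56 and 3.98 on the high-fat arrays, against 3.08, 3.15 and 2.96 on the normal diet arrays. It rose 1.73-fold (0.79 ± 0.14, limma adjusted p = 0.0215). The normal diet arrays were all under the filter level, and RMA compresses differences there. Birc5 was not called without high-fat array 1 or 3 (limma adjusted p = 0.0875 and 0.0986).

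Bub1b, a checkpoint kinase gene, differed by 0.061 ± 0.128, Aurka, which encodes a centrosome kinase, by 0.032 ± 0.142, and Plk1, a further mitotic kinase gene, by 0.027 ± 0.098. Kif11, which encodes a spindle motor, differed by -0.064 ± 0.107, and by 0.014 after cyclic loess. The 95% intervals of these 4 differences reached from -0.31 to 0.36 at their widest. Each of the 4 changed sign when a certain array was left out. Bub1b, Aurka and Kif11 averaged 3.86, 3.84 and 3.61 under the high-fat diet, against 3.80, 3.80 and 3.68 under the normal diet. These levels are close to the filter level, which ran from 3.48 to 3.59 over the arrays, and Kif11 was under it on high-fat array 3. A change in these genes could therefore be compressed. Cdc20, an activator of the anaphase-promoting complex, had levels of 6.28, 6.43 and 6.45 on the high-fat arrays, against 6.71, 6.38 and 6.40 on the normal diet arrays. The difference was -0.11 ± 0.12 (limma adjusted p = 0.599), with overlap, and 2.2e-05 without normal diet array 1. Its other probe sets differed by 0.40 and 0.50, also uncalled (limma adjusted p = 0.2 and 0.161 with probe sets tested one by one). On both of these every high-fat array lay above every normal diet array. The probe set at 0.40 has no suffix, while the brightest one has. Bub1, Aurkb and Nusap1 stayed under the filter level, and with Ccne2 and Tyms their 11 probe sets had levels between 2.20 and 3.36.

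Both general markers of proliferation were called higher, Top2a on its brightest probe set only. Top2a, which encodes the topoisomerase that untangles copied chromosomes, had levels of 4.49, 4.74 and 4.54 on the high-fat arrays, against 3.78, 4.07 and 4.004 on the normal diet arrays. It rose 1.56-fold (0.64 ± 0.12, limma adjusted p = 0.0245). Its other probe sets did not move with this one, at differences of -0.23, which was not called, and 0.0087 for a probe set under the filter level on all 6 arrays, which was not tested. On the probe set at -0.23 every high-fat array lay below every normal diet array. Mki67, which encodes a nuclear protein of cycling cells, had levels of 4.504, 4.15 and 4.48 on the high-fat arrays, against 3.83, 3.83 and 3.64 on the normal diet arrays. It rose 1.53-fold (0.61 ± 0.13, limma adjusted p = 0.0337). The normal diet levels of Mki67 were little above the filter level of these arrays (3.54, 3.53 and 3.59), so the size of this change is uncertain. For both genes the high-fat arrays lay above the normal diet arrays on the brightest probe set. Neither was called without high-fat array 1, 2 or 3 (limma adjusted p = 0.0695, 0.101 and 0.0907 for Top2a, and 0.127, 0.0518 and 0.129 for Mki67). Mki67 was also not called without normal diet array 1 or 2 (limma adjusted p = 0.0531 and 0.0589). Averaged over its probe sets Top2a differed by 0.14, and read from a suffix-free probe set by -0.23, both uncalled.

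**Figure D4:**
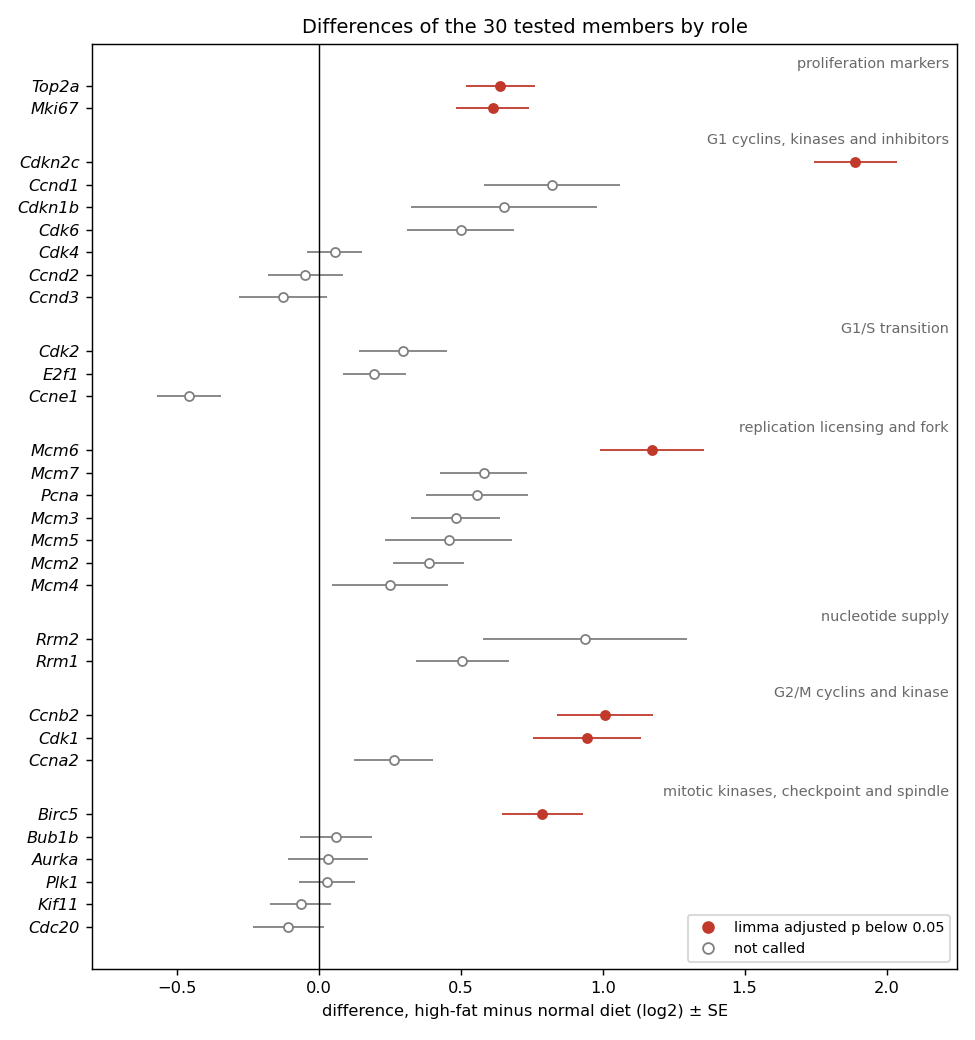
Difference of each of the 30 tested members, high-fat minus normal diet (log2) ± SE of limma's fit, grouped by role, with filled red points for an adjusted p below 0.05. All replication genes are right of 0, and Bub1b, Aurka, Plk1, Kif11 and Cdc20 are near 0 on their brightest probe sets.

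Across probe sets the picture depended on which one was read. Of the 87 member probe sets 59 passed the filter, and when tested one by one 7 were called higher, against 4.02% of all probe sets tested, and 0 lower, against 1.31%. These 7 were the brightest probe sets of the 7 called genes. For Cdkn2c, Ccnb2, Cdk1, Birc5 and Mki67 the called probe set was the only one. Of the 4 other probe sets of called genes only 1, of Top2a, passed the filter, and it was not called.

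**Figure D5:**
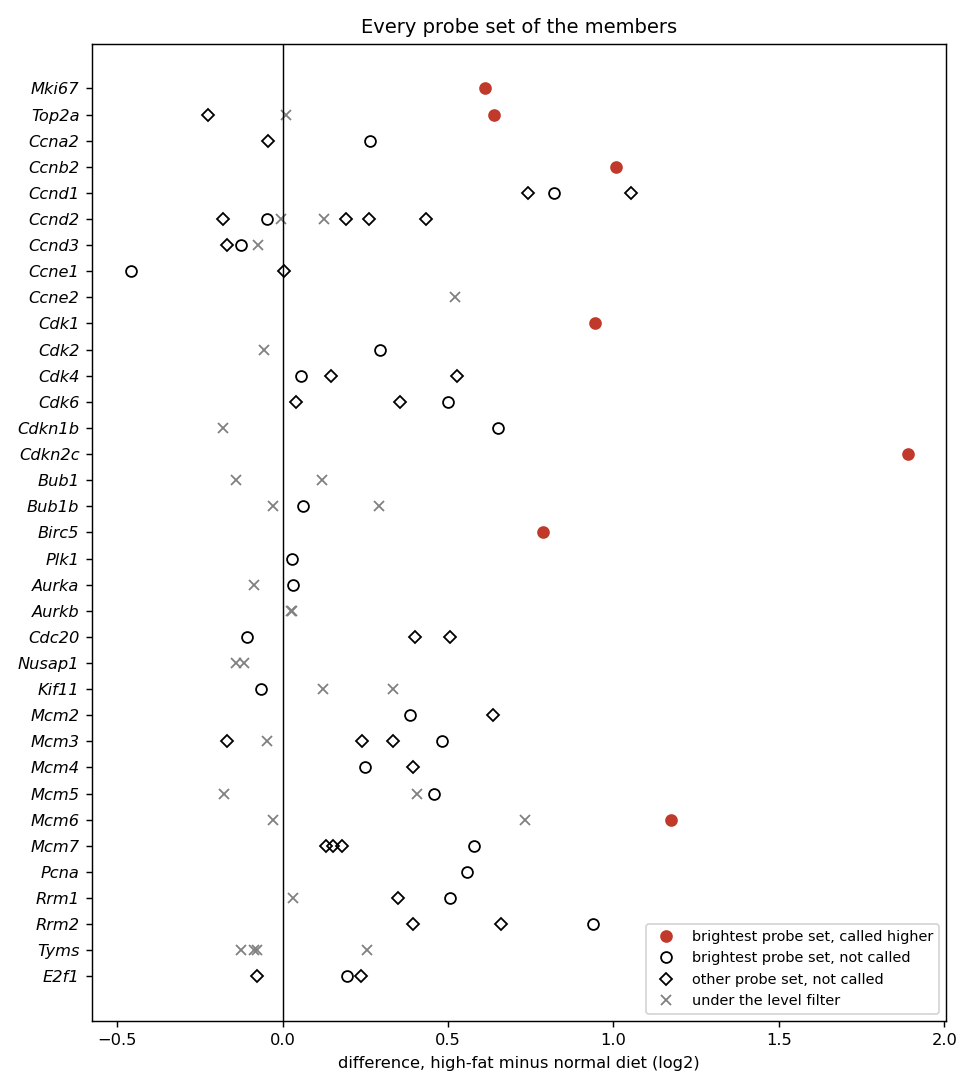
Difference of every member probe set, high-fat minus normal diet (log2), 1 row per gene. Circles are the brightest probe set of a gene, diamonds the others, and crosses probe sets under the level filter, with red for a call. Those of Ccnd1 all lie between 0.74 and 1.05, while those of Top2a, Ccnd2, Ccne1 and Cdc20 spread across 0 or up to it.

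Other genes of the cycle, in 3 lists outside the members, were counted in the same fit. Of 85 tested 12 were called higher (14.1%, against the 5.87% of all tested genes), 3 lower and 70 not called, with a median difference of 0.19. The count of higher genes was 5, 5 and 3 without high-fat array 1, 2 or 3 and 17, 11 and 16 without normal diet array 1, 2 or 3. That of lower genes was 0 whichever high-fat array was omitted and 4, 1 and 5 without normal diet array 1, 2 or 3.

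Of 36 tested genes of the fork and of licensing 5 rose (13.9%), 2 fell and 29 were not called. Over all tested genes 5.87% were called higher and 1.73% lower. Cdt1, which loads the Mcm helicase, rose 2.27-fold (1.18 ± 0.11, limma adjusted p = 0.00314), and Gmnn, which encodes geminin, the inhibitor of the Cdt1 protein, 3.37-fold (1.75 ± 0.29, limma adjusted p = 0.0168). Rfc3, a clamp loader subunit gene, rose 1.97-fold (0.98 ± 0.13), Prim1, a primase subunit gene, 2.02-fold (1.02 ± 0.16), and Rpa3, of the single-strand binding complex, 1.81-fold (0.85 ± 0.16). Fen1, which encodes a flap endonuclease, fell by 1.32 on the log2 scale (SE 0.24), and Cdc7, a replication kinase gene, by 0.57 (SE 0.11). The Fen1 probe set used carries the suffix for possible cross-hybridisation, and its other probe set differed by 0.37. Rpa3, Fen1 and Cdc7 were named after their values were seen. Cdt1 was called whichever array was omitted. It differed by 0.49 when its probe sets were averaged, still called, and by 0.51 in its suffix-free probe set, uncalled (limma adjusted p = 0.0748). Rfc3 was not called without high-fat array 3 (0.996, limma adjusted p = 0.0542). Gmnn, Prim1, Rpa3, Fen1 and Cdc7 lost their calls on omission of any high-fat array (limma adjusted p from 0.0518 to 0.112), Cdc7 also not without normal diet array 2 (adjusted p = 0.0579). Averaged over probe sets Fen1 and Cdc7 differed by -0.48 and -0.25, uncalled.

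Among 32 tested mitotic genes outside the members 5 rose (15.6%, against 5.87% of all tested genes) and 27 were not called. Ube2c, the ubiquitin-conjugating enzyme of the anaphase-promoting complex, had levels of 5.01, 5.09 and 4.87 on the high-fat arrays, against 3.78, 3.70 and 3.71 on the normal diet arrays. It rose 2.39-fold (1.26 ± 0.10, limma adjusted p = 0.00262), and like Cdkn2c it was called in each of its 16 other settings. Cdca3 rose 2.13-fold (1.09 ± 0.13), Mad2l1, of the spindle checkpoint, 2.06-fold (1.04 ± 0.16), Cenpa, the centromeric histone variant gene, 1.97-fold (0.98 ± 0.17), and Smc2, of the condensin complex, 2.09-fold (1.06 ± 0.25), the last named after its value was seen. Averaged over probe sets Cdca3 differed by 0.22 and Cenpa by 0.22, and the suffix-free probe set of Cenpa by -0.11, all uncalled. Mad2l1 was not called without high-fat array 1 or 3 (limma adjusted p = 0.0533 and 0.0655) and Cenpa not without 2 or 3 (0.0685 and 0.083). Smc2 was not called without high-fat array 1, 2 or 3 or normal diet array 2 (limma adjusted p from 0.0757 to 0.164). With probe sets tested one by one its brightest was not called (limma adjusted p = 0.0555). The other Smc2 probe sets did not pass the level filter and differed by 0.11, 0.013, -0.074 and -0.12.

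Of 17 tested G1 regulators outside the members 2 rose (11.8%), 1 fell and 14 were not called. The shares of all tested genes were 5.87% called higher and 1.73% lower. Cdkn2d, from the same inhibitor family as Cdkn2c, rose 1.58-fold (0.66 ± 0.13, limma adjusted p = 0.0277), and E2f3, an activating E2F gene, 1.93-fold (0.95 ± 0.17, limma adjusted p = 0.0225). E2f8, an atypical repressing E2F gene linked to hepatocyte polyploidy, fell by 1.26 on the log2 scale (SE 0.27, limma adjusted p = 0.0354). Its levels were 4.42, 4.28 and 4.17 on the high-fat arrays, against 6.09, 5.62 and 4.92 on the normal diet arrays. None of the 3 was called without high-fat array 1, 2 or 3 or normal diet array 2 (limma adjusted p from 0.0544 to 0.134). Averaged over probe sets E2f3 differed by 0.41, uncalled, and E2f8 by -0.80, still called. The other E2f3 probe set went the other way, by -0.12, uncalled (limma adjusted p = 0.513 when tested one by one).

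Of 16 tested p53 response genes 1 rose (6.25%), 1 fell and 14 were not called. Over all tested genes 5.87% were called higher and 1.73% lower. Gadd45g, a growth arrest gene, fell by 1.78 on the log2 scale (SE 0.17, limma adjusted p = 0.00351), and Ccng1, a cyclin gene driven by p53, rose 1.61-fold (0.69 ± 0.11, limma adjusted p = 0.0151). Of 14 tested immediate early growth genes 1 rose (7.14%), 1 fell and 12 were not called. In both lists the share called higher was near that of all tested genes. Junb, a subunit gene of the factor AP-1, fell by 1.73 on the log2 scale (SE 0.17, limma adjusted p = 0.00351), and Klf6 rose 2.54-fold (1.34 ± 0.28, limma adjusted p = 0.0335). Gadd45g and Junb were called whichever array was omitted. Ccng1 was not called without high-fat array 2 or 3 (limma adjusted p = 0.0744 and 0.0779), and Klf6 not without high-fat array 1, 2 or 3 or normal diet array 1 (adjusted p from 0.0533 to 0.0986). Averaged over its probe sets Klf6 differed by 0.80, still called.

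Most markers of macrophages and some markers of stellate cells and fibroblasts were higher under the high-fat diet along with the called members. Their part in the results above was not tested. Of 11 macrophage markers, all of those listed, 7 were called higher (63.6%, against 5.87% of all tested genes) and 4 not called. Among these 4, Trem2 was lower on every high-fat array than on any normal diet array (-0.43). Clec4f (0.071) and Marco (-0.059) overlapped between the diets, and Cd9 differed by 1.08 with no overlap. The mean level of the 11 ran from 7.51 to 7.60 on the high-fat arrays and from 6.75 to 7.16 on the normal diet arrays. Of 7 stellate cell and fibroblast markers 3 were called higher (42.9%, against the same 5.87%). Mean levels of the 7 were 7.04 to 7.46 on the high-fat arrays and 6.49 to 6.68 on the normal diet arrays. Of 6 endothelial markers 1 was called higher (16.7%, against 5.87%). Mean levels of the 6 were 6.87 to 6.97 on the high-fat arrays and 6.42 to 6.67 on the normal diet arrays. Of the tested T and NK cell (5 of 8 listed), B cell (3 of 5), neutrophil (2 of 5), cholangiocyte (4 of 5) and erythroid (1 of 4) markers 0 were called by limma, with 1 neutrophil and 1 cholangiocyte marker at an unadjusted p below 0.05. The mean of the 6 hepatocyte markers was 13.46 to 13.49 on the high-fat arrays and 13.60 to 13.64 on the normal diet arrays, while their median difference was 0.0015. Fgb, a fibrinogen gene, was called lower (-0.78). Alb, Ttr and Apoh, with differences of 0.073, 0.13 and 0.051, were not called. Each was higher on every high-fat array than on any normal diet array. Tat, also not called, was lower on every high-fat array than on any normal diet array (-0.26). Apoa1 differed by -0.048, with overlap. Fgb and Tat were the 2 hepatocyte markers at an unadjusted limma p below 0.05.

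Correlations across probe sets ran from 0.994 to 0.995 among high-fat arrays and from 0.984 to 0.992 among normal diet arrays. Probe sets are not independent replicates. The median SD of a tested member was 0.169 under the high-fat diet and 0.198 under the normal diet. Over all tested genes it was 0.117 under the high-fat diet and 0.166 under the normal diet. Of the 30 members 16 had their lowest normal diet level on array 3, and 17 their highest on array 2. The mean level of the tested members ran from 5.77 to 5.84 on the high-fat arrays and from 5.30 to 5.40 on the normal diet arrays. RNA integrity was read from control probe sets for the ends of Gapdh: the 3′ level minus the 5′ level lay between -0.19 and 0.0086 on 5 arrays, the high-fat arrays among them, and was 0.36 on normal diet array 1.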

How the data were processed

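Pooled mouse liver RNA was hybridised to 3 Mouse Genome 430 2.0 arrays for each diet. The authors deposited 1 log2 level for each probe set on each array. Per the submitters' processing notes these came from RMA and Affymetrix Expression Console 1.0. Of 45101 probe sets 64 controls were left out, 34945 of the others had 1 symbol in the platform annotation, 932 several and 9160 are unnamed here. Gene IDs of 34741 were found in a RefSeq table of GRCm38.p6, and 0 symbols changed.

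Groups came from the sample titles. limma 3.58.1 in R 4.3.3 (lmFit, eBayes, two-sided, Benjamini-Hochberg over all 14071 genes) was tested on simulated data. Figures were drawn with matplotlib 3.10.9 and tables made with pandas 2.3.3, under Python 3.11.15. The members and lists were chosen with earlier results of these data known. Named genes were all members, with every array's value for called ones and for the largest difference and highest level of each role, and called genes of 5 other lists, at most 4 per list by p unless said. Nothing says that the pools were prepared separately beyond their labels, so the p-values measure the spread between arrays, whose number limits the precision.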

Additional observations from a re-analysis of the deposited data

How the results depend on the processing

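Of all tested genes 826 were called higher and 244 lower, and 597 and 299 after quantile normalization. Array weights gave 373 lower. At an adjusted p below 0.01 there were 125 and 47, and with a 2-fold minimum 234 and 97. Leaving out 1 array gave 123 to 933 higher and 46 to 312 lower. Member genes called higher were 7, and 1 at an adjusted p below 0.01, 3 with a 2-fold minimum and 1 to 9 without 1 array. Of lower members there were 0, and 1, Ccne1, with array weights, quantile normalization and cyclic loess. Of the cell cycle genes outside the members 12 higher became 4 at an adjusted p below 0.01, 7 with a 2-fold minimum and 3 to 17 without 1 array. Of these genes 3 lower became 5 with array weights, 1 when probe sets were averaged, 1 with probe sets without a suffix, 0 at an adjusted p below 0.01 and 0 to 5 without 1 array. Counts of members were 6 to 10 higher in the other settings over all arrays, and array weights also called Cdk6, Mcm7 and Rrm2. A smaller number of arrays is part of the settings that leave one out.

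Signs changed with probe sets without a suffix for Top2a (-0.23), Ccnd2 (0.26), Ccne1 (0.0042), Cdc20 (0.40), Mcm3 (-0.17) and Cenpa (-0.11), and on averaging probe sets for Ccnd2 (0.11) and Cdc20 (0.27). Other scalings turned Cdk4 (-0.081 after quantile normalization, -0.048 after cyclic loess) and Kif11 (0.014 after cyclic loess), and array weights turned Plk1 (-0.013). Further probe sets went the other way for Top2a (-0.23), Ccna2 (-0.044), Ccnd2 (0.26, 0.43 and 0.19), Ccne1 (0.0042), Cdc20 (0.50 and 0.40), Mcm3 (-0.17) and E2f1 (-0.079). Among called genes outside the members, tested probe sets did so for E2f3 (-0.12), Cdca3 (-0.27), Cenpa (-0.11) and Fen1 (0.37). Without 1 array in turn the difference ran from -0.15 to 0.056 for Ccnd2, from -0.28 to 0.019 for Ccnd3, from -0.058 to 0.12 for Bub1b, from -0.018 to 0.070 for Plk1, from -0.050 to 0.16 for Aurka, from -0.17 to 2.2e-05 for Cdc20 and from -0.11 to 0.0034 for Kif11. The cause was not tested in any of these.

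The sample titles do not say whether arrays of the same replicate number were paired, and the main fit treated them as unpaired. Deviations of arrays of the same number correlated by -0.012, 0.036 and 0.1, so little shared deviation was seen. With a replicate block 6 members were called higher, and 581 of all genes higher and 187 lower. The calls of Mki67 (limma adjusted p = 0.0645), Cdkn2d (0.0559), Klf6 (0.0564), Cdc7 (0.0599) and Smc2 (0.0641) were lost.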
